A study of Mus musculus with 54 samples.

Results

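The nuclear factor κB (NF-κB) system was followed through the transcripts of 10 genes, selected by gene symbol from the 33280 symbols of the count tables. The subunits were Nfkb1, Nfkb2, Rel, Rela and Relb, and the inhibitors of the IκB family were Nfkbia, Nfkbib, Nfkbie, Nfkbiz and Bcl3. All 10 symbols were present in each table, and all 10 passed the filter on low counts in each of the 22 comparisons.

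The libraries came from microglia (MG) and subdural central nervous system-associated macrophages (sdCAMs, which reside in the leptomeninges and around vessels), sorted from mouse brains without choroid plexuses 12 h after an injection of lipopolysaccharide (LPS) or phosphate-buffered saline (PBS). WT mice (C57BL/6JCrl) and Ccr2-/- mice, which lack the chemokine receptor that recruits monocytes, were either untreated and injected with PBS, given the vehicle solution (CTL) followed by LPS, or given BLZ945 followed by LPS. BLZ945 inhibits the receptor of colony-stimulating factor 1 and depletes brain macrophages, which then repopulate, and the injection followed 8 weeks after the end of this treatment. The 18 libraries of the reporter mice came from animals with the genotype Ccr2CreERT2/CreERT2:R26tdT/tdT, all of which had received BLZ945 and tamoxifen, and which were then injected with LPS or PBS. In these mice the Cre recombinase is driven from the Ccr2 locus, so that cells expressing Ccr2 at the time of tamoxifen, monocytes among them, and their progeny carry tdTomato, and their sdCAMs were sorted as tdT+ or tdT-. In all, 54 libraries formed 18 groups of 3 libraries, each library of a group from another mouse, and the 24 mice gave MG and sdCAM libraries with the same mouse number. The untreated mice injected with PBS had not received the vehicle, so that vehicle and LPS cannot be told apart in the WT and Ccr2-/- LPS responses. WT and Ccr2-/- libraries were deposited in a count table each and carry the same batch number, and the labels do not say whether the mice were littermates. The labels give no age for single mice.

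NF-κB dimers are held in the cytoplasm by IκB proteins until a receptor such as Toll-like receptor 4, which recognises LPS, activates the IκB kinases. In the canonical pathway IκBα is then degraded and dimers of p65 (Rela), c-Rel (Rel) and p50 (processed from the Nfkb1 product) enter the nucleus. In the alternative pathway the Nfkb2 product is processed to p52, which pairs with RelB. Several genes of the system are themselves NF-κB targets, Nfkbia being the best known, whose newly made protein ends the response. Nfkbiz and Bcl3 encode atypical IκB proteins that act in the nucleus on p50 or p52 and can activate as well as repress genes.

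Promoter windows are printed here to show where the κB consensus (the 10-base motif bound by NF-κB dimers) lies in genes that changed after LPS, such as Nfkbia, Nfkb2 and Bcl3, and in Rela, which passed in no population by itself. The RefSeq promoter table of build GRCm38.p6 held windows of 250 bases before to 50 bases after a start for 7 of the 10 members. Nfkb1, Relb and Nfkbiz had none. Both strands were searched, the capitals mark the bases that match the consensus, and overlapping matches form 1 run of capitals. The windows are given 5′ to 3′ on the strand of the gene.
Nfkbia (chr12:55492598-55492897, minus strand): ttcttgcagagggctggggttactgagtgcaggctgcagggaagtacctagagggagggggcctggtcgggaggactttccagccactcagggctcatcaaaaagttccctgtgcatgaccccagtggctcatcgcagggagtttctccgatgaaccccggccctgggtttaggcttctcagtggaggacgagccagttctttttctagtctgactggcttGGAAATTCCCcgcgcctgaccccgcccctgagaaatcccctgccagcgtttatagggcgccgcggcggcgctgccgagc
Nfkb2 (chr19:46304487-46304786, plus strand): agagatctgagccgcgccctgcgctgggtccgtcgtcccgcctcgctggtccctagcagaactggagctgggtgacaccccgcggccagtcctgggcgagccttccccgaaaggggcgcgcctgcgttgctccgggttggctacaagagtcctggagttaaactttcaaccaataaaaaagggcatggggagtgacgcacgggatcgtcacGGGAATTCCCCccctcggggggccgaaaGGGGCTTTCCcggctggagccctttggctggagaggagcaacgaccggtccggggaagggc
Bcl3 (chr7:19822706-19823005, minus strand): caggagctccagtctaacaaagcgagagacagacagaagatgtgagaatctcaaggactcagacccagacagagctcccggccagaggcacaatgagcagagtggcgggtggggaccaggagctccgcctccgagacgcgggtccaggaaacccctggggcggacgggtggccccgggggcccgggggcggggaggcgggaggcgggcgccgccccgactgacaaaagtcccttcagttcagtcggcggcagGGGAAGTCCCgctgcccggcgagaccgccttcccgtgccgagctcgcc
Rel (chr11:23770920-23771219, minus strand): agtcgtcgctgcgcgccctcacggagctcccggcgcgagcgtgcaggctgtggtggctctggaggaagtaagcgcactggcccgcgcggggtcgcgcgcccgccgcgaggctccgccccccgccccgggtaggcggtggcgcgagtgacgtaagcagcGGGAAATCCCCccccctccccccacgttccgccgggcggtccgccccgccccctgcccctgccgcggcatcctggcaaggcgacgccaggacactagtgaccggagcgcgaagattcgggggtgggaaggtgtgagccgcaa
Nfkbie (chr17:45555450-45555749, plus strand): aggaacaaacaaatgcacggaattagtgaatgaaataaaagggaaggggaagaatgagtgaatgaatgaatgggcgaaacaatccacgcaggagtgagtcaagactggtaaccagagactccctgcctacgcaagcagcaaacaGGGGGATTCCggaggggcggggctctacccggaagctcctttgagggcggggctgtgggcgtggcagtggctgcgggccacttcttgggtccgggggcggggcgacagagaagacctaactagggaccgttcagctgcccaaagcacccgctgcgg
Rela (chr19:5637291-5637590, plus strand): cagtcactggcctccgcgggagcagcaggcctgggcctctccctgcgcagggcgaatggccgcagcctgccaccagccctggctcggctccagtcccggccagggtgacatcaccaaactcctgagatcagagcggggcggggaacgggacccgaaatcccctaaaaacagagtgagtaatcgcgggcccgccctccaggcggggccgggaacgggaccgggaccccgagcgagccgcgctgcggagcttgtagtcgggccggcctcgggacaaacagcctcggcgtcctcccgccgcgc

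In the Nfkbia window 1 match began 29 bases before the start. Of the 3 Nfkb2 windows in the table, each with a match, the one printed held 2 runs, which began 39 and 11 bases before the start and made up 4 matches when both strands were read. The matches of Rel (3, overlapping) and Nfkbie (1) began 92 and 106 bases before the start, and that of Bcl3 lay just downstream of its start. The Rela window and that of Nfkbib (chr7:28766595-28766894, minus strand, not shown) held none. Thus 5 of the 7 members with a window had a match, whereas 4.51% of all 32851 windows and 5.14% of the 27025 symbols with a window did. Among the members with a match, Nfkbia rose after LPS in 7 populations, Bcl3 in 3, Nfkb2 in 2, and Rel and Nfkbie in 1 each. Of those without a match, Nfkbib rose in 3 and Rela in none. Whether a match goes with the response was not tested. A match describes these letters, and binding was not measured.

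Levels are given as CPM, counts scaled to a common library size after adjustment by the trimmed mean of M-values (TMM), which offsets genes that dominate a library. Total counts per library ranged from 1705930 to 11330781, with 7497764 to 11330781 in MG and as few as 1705930 in WT sdCAMs. Reporter sdCAM libraries held 8652557 to 9850283 counts after PBS and 2060240 to 8751293 after LPS. Their TMM factors were 1.02 to 1.07 after PBS and 0.47 to 1.3 after LPS. Marker genes matched the sorted populations: the summed level of 5 border macrophage markers was at least 502 CPM in every sdCAM library and at most 21.9 CPM in MG, while the 5 microglial markers summed to 5287 to 36748 CPM in MG and 239 to 8552 CPM in sdCAMs. The deleted gene Ccr2 was at 17.05 to 51.01 CPM in untreated WT sdCAMs and 2.33 to 5.204 CPM in untreated Ccr2-/- sdCAMs, but after CTL and LPS at 0 to 0.755 CPM in WT and 3.05 to 5.47 CPM in Ccr2-/- sdCAMs, and in untreated MG its ranges overlapped (3.08 to 8.53 and 4.71 to 6.47 CPM), so that it checked the genotype label in untreated sdCAMs only. The tdT+ library of mouse 5 after LPS stood apart, with 7841 CPM of the 5 microglial markers (471 and 622 in the other 2) and 502 CPM of the border macrophage markers (2957 and 3687 in the other 2). In WT sdCAMs after CTL and LPS, 43.6 to 53.3% of all counts fell on 10 genes, and the acute-phase gene Saa3 alone took 23.0 to 35.8%. Values are listed in the order of the mouse numbers. In sorted bulk libraries, fewer cells of a type and less RNA per cell cannot be told apart. Within a sorted population, p-values measure the spread between libraries of different mice, except in tdT+ and tdT- sdCAMs. For these the spread was estimated over the 12 libraries of both, 2 from each mouse, so that the separate tdT+ and tdT- tests also count each mouse 2 times.

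In untreated MG, Rela and Nfkbia were the most abundant members per length of transcript and Bcl3 the least abundant. Per kilobase of exon, WT MG held 57.1 ± 6.7 CPM of Rela (SD, n = 3), 49.3 ± 8.697 of Nfkbia and 42.6 ± 1.42 of Nfkb1, each overlapping with the next in this order, followed at a distance by Nfkbie at 22.2 ± 2.52. Rel, Nfkbib and Relb came next with means between 10.4 and 13.6, Nfkbib overlapping with both and Rel not with Relb, and Nfkb2, Nfkbiz and Bcl3 followed without overlap, the last at 1.898 ± 0.271 CPM per kilobase. Ccr2-/- MG had the same first 4 genes in the same order. In untreated sdCAMs Nfkbia came first (81.3 ± 29.8 in WT and 67.5 ± 9.34 in Ccr2-/- mice), although its libraries overlapped with those of Rela in both genotypes. WT sdCAM libraries spread so widely that each gene overlapped with the next in this order.

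Untreated sdCAMs held more of the atypical inhibitors than MG did. Nfkbiz was measured at 18.4, 21.2 and 12.3 CPM in the 3 WT MG libraries and at 34.7, 97.4 and 58.7 CPM in the WT sdCAM libraries (log2 fold change 1.90, SE 0.51, adjusted p = 0.0164, edgeR's quasi-likelihood test with Benjamini-Hochberg adjustment). The sdCAM values were all above the MG values. In Ccr2-/- mice Nfkbiz was at 17.3, 7.37 and 10.6 CPM in MG and 43, 22.4 and 36 CPM in sdCAMs (log2 fold change 1.52, SE 0.41, adjusted p = 0.0102, edgeR), again without overlap. Bcl3 showed the widest gap in Ccr2-/- mice, with 2.29, 1.71 and 4.17 CPM in MG against 13.3, 21.1 and 17 CPM in sdCAMs (log2 fold change 2.66, SE 0.31, adjusted p = 1.75e-06, edgeR). In WT mice its MG level was 2.97, 3.97 and 3.59 CPM and its sdCAM level 3.12, 19.9 and 12.3 CPM (log2 fold change 1.75, SE 0.54, adjusted p = 0.0316, edgeR), where the sdCAM library of mouse 9 fell within the MG range with 8 counts. Ccr2-/- sdCAMs further held less Nfkb1 (log2 fold change -0.91, edgeR adjusted p = 0.00282) and more Nfkb2 (log2 fold change 0.74, edgeR adjusted p = 0.0102) than MG. In total 2 of the 10 members passed in WT and 4 in Ccr2-/- mice, against 17.7% and 22.4% of all genes tested. The WT calls depended on single libraries: without the sdCAM library of mouse 14 the adjusted p was 0.1001 for Nfkbiz and 0.221 for Bcl3, and further libraries are named with the limits of the processing.

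**Figure D1:**
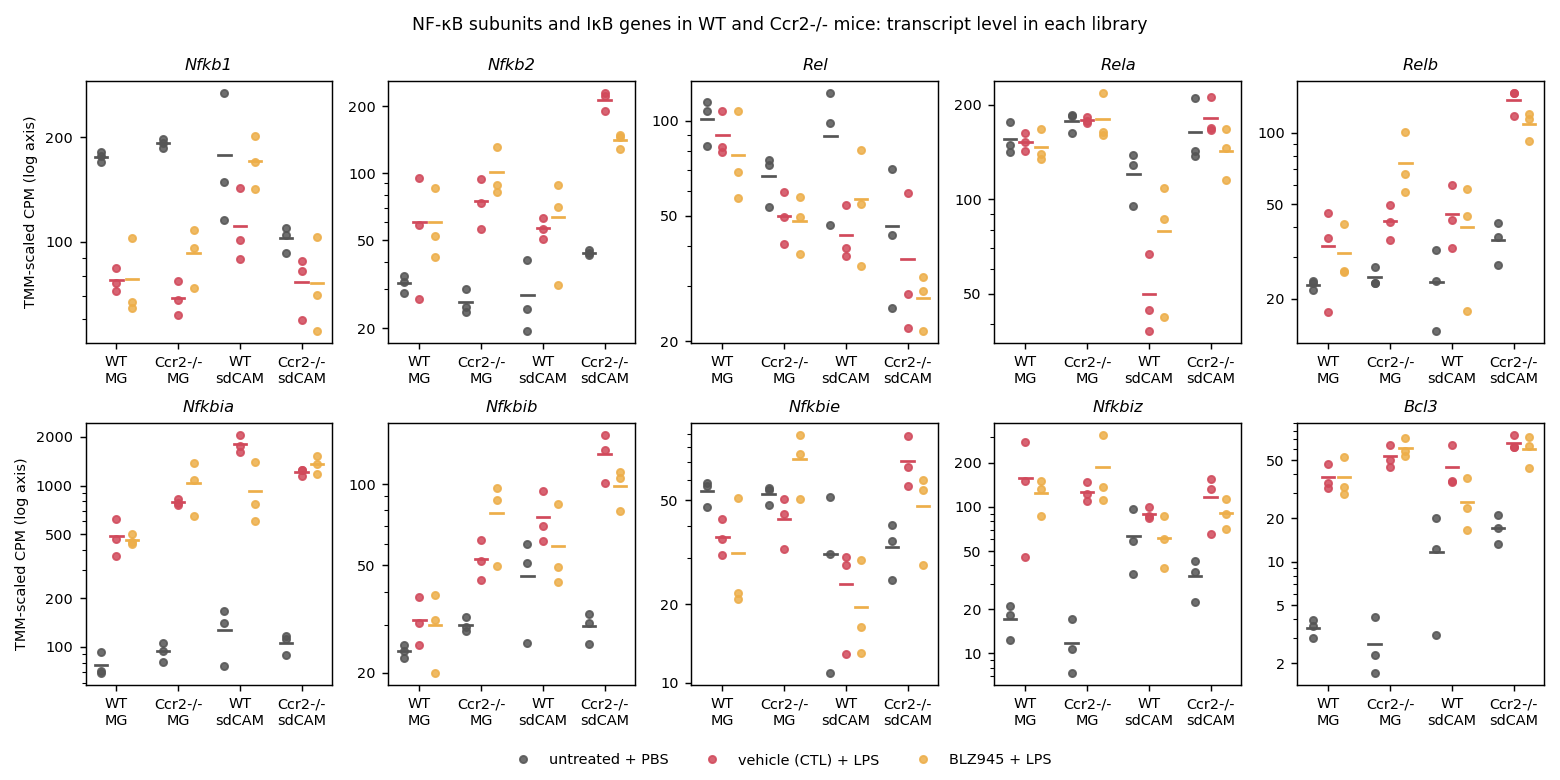
TMM-scaled CPM (log axis, each panel with its own range) of the 10 genes in each WT and Ccr2-/- library. Points are libraries, bars are means of 3 libraries, and colours mark untreated + PBS, vehicle (CTL) + LPS and BLZ945 + LPS. The Nfkbia and Bcl3 libraries after vehicle and LPS lie above the untreated ones in all 4 populations, and Nfkb1 in MG lies below.

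After LPS, Nfkbia was the member that rose in all 7 sorted populations, whereas Rela passed in none of them. Nfkbiz rose in 5 populations, Bcl3 and Nfkbib in 3 each, Nfkb2 and Relb in 2 each and Rel and Nfkbie in 1 each. Nfkb1 fell in WT and Ccr2-/- MG and rose in tdT+ and tdT- sdCAMs. The populations of 1 table were each tested against their own PBS libraries, and passing in one population and not in another does not show that they differ.

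In WT MG, 3 members rose and 1 fell, against 16.6% and 14.2% of all genes, and in Ccr2-/- MG 6 rose and 1 fell, against 19.4% and 15.6%. The median log2 fold change of the members was 0.46 in WT and 0.82 in Ccr2-/- MG, where that of all genes was 0.02 and 0.00. All 4 members called in WT MG were among the 7 called in Ccr2-/- MG.

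Among the subunits, Nfkb1, the precursor of p50, fell in MG of both genotypes. Its level was 169.6, 176 and 181 CPM in untreated WT MG and 72.2, 76.2 and 84.4 CPM after CTL and LPS (log2 fold change -1.17, SE 0.18, adjusted p = 0.000492, edgeR). In Ccr2-/- MG the level was 192, 198 and 186 CPM untreated and 77.1, 67.9 and 61.4 CPM after LPS (log2 fold change -1.46, SE 0.16, adjusted p = 8.12e-06, edgeR). In both genotypes every library after LPS held less than 50% of any untreated library. Nfkb2, the precursor of p52, moved the other way in Ccr2-/- MG, from 24.9, 29.98 and 23.6 CPM to 94.5, 56.2 and 73.4 CPM (log2 fold change 1.53, SE 0.22, adjusted p = 9.34e-05, edgeR). In WT MG it was at 28.8, 32.5 and 34.5 CPM untreated and at 95.5, 27 and 58.3 CPM after LPS (log2 fold change 0.92, SE 0.40, adjusted p = 0.1098, edgeR). DESeq2 called it with every library (log2 fold change 0.91, adjusted p = 0.0408). The library of mouse 4 was the low one here and lay under the untreated range. Without it Nfkb2 passed (log2 fold change 1.27, edgeR adjusted p = 0.00255), as did Relb (0.85, adjusted p = 0.00811).

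Relb, the partner of p52, rose in Ccr2-/- MG from 23.2, 23.3 and 27.2 CPM to 49.3, 35.2 and 42.2 CPM (log2 fold change 0.80, SE 0.22, adjusted p = 0.01001, edgeR). Its WT MG values were 23.3, 23.8 and 21.6 CPM untreated and 46, 17.5 and 36.1 CPM after LPS, with mouse 4 again lowest and the groups overlapping (log2 fold change 0.54, adjusted p = 0.1995, edgeR). Rela, which encodes the main transactivating subunit p65, was at 176, 141 and 149 CPM in untreated WT MG and at 143, 153 and 163 CPM after LPS. The 95% interval of its log2 fold change was -0.33 to 0.30 in WT MG and -0.28 to 0.34 in Ccr2-/- MG. For Rel, which encodes c-Rel, the intervals were -0.66 to 0.32 and -0.84 to 0.04.

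Among the inhibitors, Nfkbia, which encodes IκBα, was at 93.6, 69.2 and 70.5 CPM in untreated WT MG and at 618, 369 and 469 CPM after LPS, 6.26-fold higher (log2 fold change 2.65, SE 0.20, adjusted p = 1.93e-06, edgeR). In Ccr2-/- MG it went from 106, 80.2 and 95 CPM to 828, 759 and 782 CPM, 8.54-fold higher (log2 fold change 3.09, SE 0.23, adjusted p = 2.46e-07, edgeR). The groups were far apart in both genotypes. Bcl3 had the highest estimated increase of the members in WT and Ccr2-/- MG, from a low level of 2.97, 3.97 and 3.59 CPM to 47.4, 35 and 32.3 CPM in WT (log2 fold change 3.44, SE 0.28, adjusted p = 3.81e-06, edgeR). In Ccr2-/- MG its level went from 2.29, 1.71 and 4.17 CPM to 64.2, 44.8 and 50.6 CPM (log2 fold change 4.33, SE 0.29, adjusted p = 1.22e-07, edgeR). Each library after LPS thus held several times the level of the highest untreated library.

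Nfkbiz, which encodes IκBζ, rose from 18.4, 21.2 and 12.3 CPM to 278, 45.8 and 149.8 CPM in WT MG (log2 fold change 3.20, SE 0.60, adjusted p = 0.00534, edgeR), where mouse 4 again had the lowest value. In Ccr2-/- MG it rose from 17.3, 7.37 and 10.6 CPM to 148, 109 and 122 CPM (log2 fold change 3.45, SE 0.41, adjusted p = 6.08e-05, edgeR). Nfkbib, which encodes IκBβ, was at 29.6, 28.6 and 32.3 CPM in untreated Ccr2-/- MG and 62.1, 44.3 and 52 CPM after LPS (log2 fold change 0.83, SE 0.22, adjusted p = 0.00983, edgeR). Its WT MG libraries were at 25.4, 22.8 and 24.2 CPM and 38.3, 25.4 and 30.5 CPM, the highest untreated and the lowest LPS library being nearly equal, and it did not pass (log2 fold change 0.39, adjusted p = 0.246, edgeR). The Relb and Nfkbib calls of Ccr2-/- MG were lost without the library of mouse V1m after LPS, at adjusted p = 0.0539 and 0.0538. Nfkbie, which encodes IκBε, lay lower after LPS in WT MG, at 47.2, 58.5 and 56.9 CPM untreated and 30.9, 35.6 and 42.4 CPM after LPS, without passing (log2 fold change -0.57, adjusted p = 0.171, edgeR). The summed level of 14 immediate early genes, which respond to warm digestion as well as to LPS, was 931 to 1338 CPM in untreated WT MG and 1676 to 2277 CPM after LPS, and its part in these results was not tested. The summed level of the 5 microglial markers was 22872 to 23984 CPM in untreated WT MG and 5287 to 9223 CPM after LPS.

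In Ccr2-/- sdCAMs, 7 of the 10 members rose and none fell by edgeR, against 15.8% and 13.1% of all genes, with a median log2 fold change of 1.88 (all genes -0.05). These 7 included 6 of the 7 members called in Ccr2-/- MG. Both subunits of the alternative pathway rose. Nfkb2 was at 43.8, 42.8 and 45.1 CPM untreated and 230.1, 222 and 191 CPM after LPS (log2 fold change 2.29, SE 0.16, adjusted p = 4.50e-07, edgeR). Relb was at 41.7, 27.7 and 36.3 CPM and 118, 147 and 147 CPM (log2 fold change 1.96, SE 0.20, adjusted p = 1.26e-05, edgeR). In both genes the groups were separated by a wide gap.

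All 5 inhibitors rose in Ccr2-/- sdCAMs. Nfkbia went from 112, 89.8 and 118 CPM to 1154, 1242 and 1256 CPM, 11.4-fold higher (log2 fold change 3.51, SE 0.16, adjusted p = 1.12e-08, edgeR). Nfkbib went from 30.5, 33 and 25.6 CPM to 152, 134 and 101 CPM (log2 fold change 2.12, SE 0.22, adjusted p = 1.30e-05, edgeR). The lowest library after LPS held about 3 times the level of the highest untreated library for Nfkbib. Bcl3 rose from 13.3, 21.1 and 17 CPM to 61.8, 75 and 61.7 CPM (log2 fold change 1.95, SE 0.27, adjusted p = 0.000119, edgeR). Nfkbiz rose from 43, 22.4 and 36 CPM to 133, 155 and 65.3 CPM (log2 fold change 1.80, SE 0.34, adjusted p = 0.00139, edgeR), with 1 of the libraries after LPS clearly below the other 2. Nfkbie rose from 24.7, 34.8 and 40.05 CPM to 56.9, 88.5 and 66.9 CPM (log2 fold change 1.09, SE 0.31, adjusted p = 0.0185, edgeR). This last call was lost without the untreated library of mouse 1m (adjusted p = 0.0725) or the LPS library of mouse V2m (adjusted p = 0.0861).

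The remaining subunits of Ccr2-/- sdCAMs did not pass. Nfkb1 was at 109.8, 105 and 92.8 CPM untreated and 88.4, 59.4 and 82.7 CPM after LPS, all 3 values after LPS being lower (log2 fold change -0.42, adjusted p = 0.224, edgeR). Rela was at 137, 143 and 211 CPM and 166, 211 and 169 CPM, with a 95% interval of the log2 fold change of -0.29 to 0.60. For Rel the interval was -1.23 to 0.55. The sums of microglial markers were 3057 to 4596 CPM untreated and 907 to 1208 CPM after LPS, and those of immediate early genes 1290 to 1609 CPM and 3372 to 3765 CPM. The sum of 5 neutrophil markers was 0.905 to 2.41 CPM untreated and 61.1 to 96.4 CPM after LPS. The part of these shifts in the members' changes was not tested.

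In WT sdCAMs, Nfkbia was the single member that passed, against 6.40% of all genes. Its level was 141, 168 and 76.2 CPM untreated and 1616, 2062 and 1765 CPM after LPS (log2 fold change 3.94, SE 0.89, adjusted p = 0.0259, edgeR), more than 9 times higher in every library after LPS than in any untreated library. The call was nevertheless lost when any of 5 of the 6 libraries was left out (LPS mouse 1, adjusted p = 0.05398, LPS mouse 6, 0.0792, and PBS mice 9, 14 and 15, 0.0892, 0.111 and 0.0945), where replicate libraries spread more than in WT MG (biological coefficient of variation 0.700 against 0.257). Bcl3 was at 3.12, 19.9 and 12.3 CPM and 63.8, 36.1 and 35.3 CPM (log2 fold change 2.07, SE 0.69, adjusted p = 0.0897, edgeR). Its groups did not overlap.

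Nfkb2 in WT sdCAMs was at 24.5, 19.5 and 40.7 CPM untreated and 63, 55.9 and 50.7 CPM after LPS (log2 fold change 1.15, adjusted p = 0.165, edgeR). Relb was at 23.8, 14.6 and 32 CPM and 60.4, 32.6 and 43 CPM (log2 fold change 1.11, adjusted p = 0.237, edgeR). Rela was at 95, 138 and 128 CPM and 38.1, 44.3 and 67 CPM (log2 fold change -1.12, adjusted p = 0.147, edgeR). None of these groups overlapped, with Nfkb2 and Relb higher and Rela lower after LPS. Overlap was recorded for the members only, here and elsewhere, so that the share of all genes without overlap is not known. Nfkbib was at 51, 60.1 and 25.8 CPM and 70.2, 61.8 and 94.6 CPM (log2 fold change 0.85, adjusted p = 0.289, edgeR), again higher without overlap. The groups of Nfkb1, Rel, Nfkbie and Nfkbiz overlapped, with log2 fold changes of -0.51, -0.90, -0.23 and 0.62, none of which passed. The choice of scaling mattered for these libraries. With library totals in place of TMM, a choice made after seeing the data, the median log2 fold change of all genes moved from -0.08 to -1.55. Nfkbia remained higher (2.53, edgeR adjusted p = 0.01702), and Nfkb1 (-2.03, adjusted p = 0.0325), Rel (-2.38, adjusted p = 0.0184) and Rela (-2.57, adjusted p = 0.00936) passed as lower. Under totals, Nfkb2 (-0.40), Relb (-0.43), Nfkbib (-0.52) and Nfkbiz (-0.88) took the opposite sign, uncalled under either scaling. A change of scaling moves all genes of a comparison by nearly the same amount. That these genes stayed above the median of all genes, and Rela below it, is thus no check of their direction. The neutrophil marker sum was 0 to 94.2 CPM in untreated WT sdCAMs and 359 to 3290 CPM after LPS, nearly all of it S100a8, while Ly6g was at 0 in all 54 libraries. The 5 microglial markers summed to 3561 to 8552 CPM untreated and 512 to 1272 CPM after LPS. The part of either in these values was not tested.

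**Figure D2:**
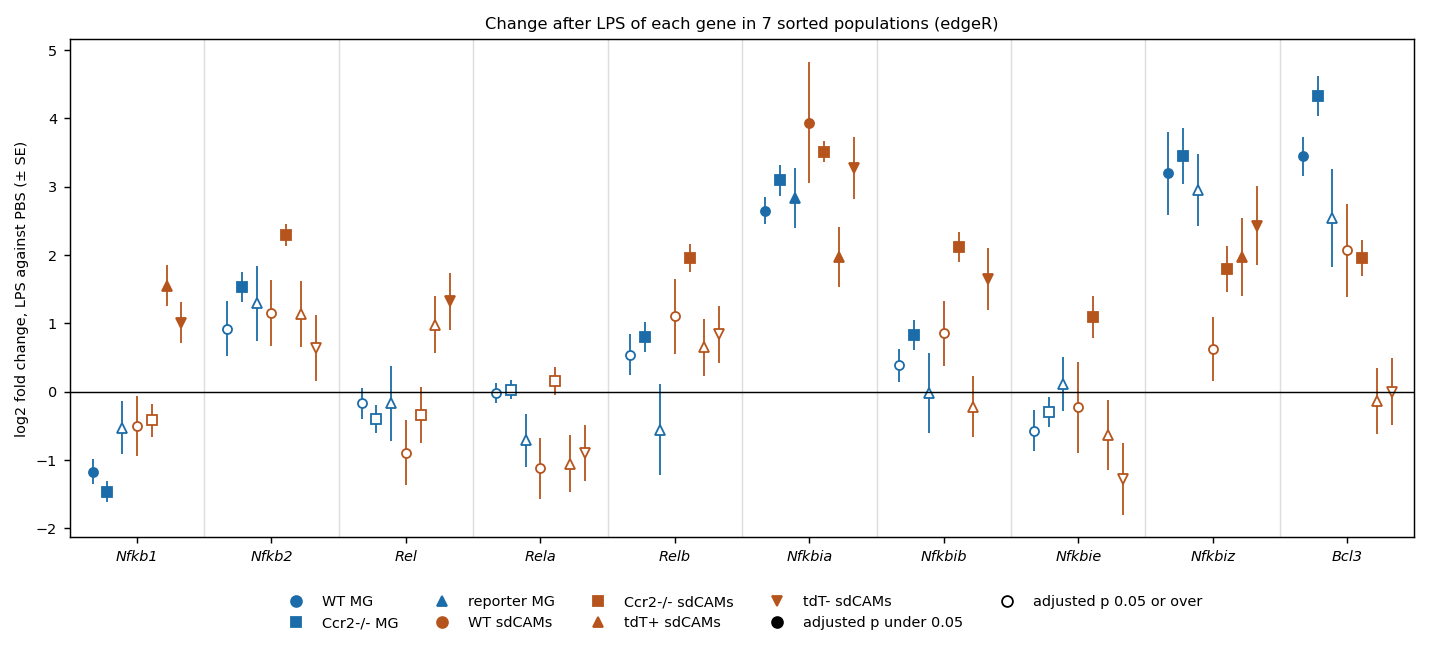
Log2 fold change (± SE) of each gene after LPS against PBS in 7 sorted populations, from edgeR. Filled symbols passed at an adjusted p under 0.05 and open symbols did not. Nfkbia lies between 1.97 and 3.94 with filled symbols throughout, and Nfkb1 lies below 0 in the WT and Ccr2-/- populations and above 0 in tdT+ and tdT- sdCAMs.

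The LPS responses of sdCAMs and MG were compared directly by an interaction of cell type and LPS. In Ccr2-/- mice 5 of the 10 members differed, against 8.23% of all genes. The increase of Bcl3 was smaller in sdCAMs (difference -2.34 on the log2 scale, SE 0.40, adjusted p = 0.000676, edgeR), where its level after LPS, 61.8, 75 and 61.7 CPM, was close to that of MG, 64.2, 44.8 and 50.6 CPM, from a higher start. The response of Nfkbib was more positive in sdCAMs (difference 1.32 on the log2 scale, SE 0.32, adjusted p = 0.0134, edgeR), as was that of Relb (difference 1.19 on the log2 scale, SE 0.31, adjusted p = 0.0187, edgeR). The response of Nfkbie was negative without passing in MG (-0.30) and positive in sdCAMs (1.09), and the difference passed (difference 1.42 on the log2 scale, SE 0.40, adjusted p = 0.0303, edgeR). Nfkb1 was lower after LPS in both, by less in sdCAMs (difference 1.08 on the log2 scale, SE 0.29, adjusted p = 0.02602, edgeR). With the mouse as a block, Nfkb1 (adjusted p = 0.0596) and Nfkbie (adjusted p = 0.0563) no longer passed and Nfkbiz did (-1.72, edgeR adjusted p = 0.00921).

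In WT mice no member passed the same interaction by edgeR (1.46% of all genes did), while DESeq2 called Nfkbiz (-2.50, adjusted p = 0.0237). The edgeR difference of Nfkbiz was -2.67 on the log2 scale with a 95% interval of -4.17 to -1.18 (adjusted p = 0.0642). It passed without the MG library of mouse 4 after LPS (adjusted p = 0.0136) or the untreated sdCAM library of mouse 9 (adjusted p = 0.0438).

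Genotype made no difference that passed. Across MG and sdCAMs, the genotype by LPS interaction was tested on 20 gene and cell type pairs, of which none passed by edgeR or DESeq2 (0% of all genes passed in either cell type). An unadjusted edgeR p under 0.05 was reached by 6 pairs, and by 490 of 12423 genes in MG and 1763 of 13258 in sdCAMs. The smallest adjusted p was 0.237, for Rela in sdCAMs (1.47 on the log2 scale, 95% interval 0.44 to 2.50), and the largest estimate was that of Nfkbie in sdCAMs (1.502, 95% interval 0.01 to 2.99). In untreated mice, none of 20 pairs passed by either tool, while 17.7% of all genes in MG and 9.35% in sdCAMs passed by edgeR. An unadjusted edgeR p under 0.05 was reached by 3 pairs, and by 3828 of 12423 genes in MG and 3522 of 13258 in sdCAMs. Rel in MG came closest, at 83.1, 115 and 107 CPM in WT and 72.3, 53.4 and 75.1 CPM in Ccr2-/- mice (log2 fold change -0.62, SE 0.23, adjusted p = 0.0632, edgeR). Its 3 Ccr2-/- libraries were all below the WT libraries, and it passed when only the untreated libraries were fitted (adjusted p = 0.00448) and without the WT library of mouse 9 (adjusted p = 0.04998).

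Prior depletion by BLZ945 likewise gave no member that passed among LPS-injected mice. Of the 40 pairs of gene and population in 4 comparisons, none passed by edgeR. Of all genes, 0.0848%, 0%, 0.0173% and 0.00837% passed in WT MG, WT sdCAMs, Ccr2-/- MG and Ccr2-/- sdCAMs. An unadjusted edgeR p under 0.05 was reached by 5 pairs. In the same order of populations, it was reached by 755 of 11789, 773 of 10504, 758 of 11558 and 999 of 11941 genes. The WT sdCAM library of BLZ945 mouse 12 stood apart, with 43.6% of its counts on 10 genes against 13.1% and 12% in the other 2, and without it 772 genes passed there, no member among them. The smallest adjusted p was that of Nfkb2 in Ccr2-/- sdCAMs, at 230.1, 222 and 191 CPM after CTL and 129, 149 and 146 CPM after BLZ945 (log2 fold change -0.63, SE 0.15, adjusted p = 0.287, edgeR). All 3 BLZ945 libraries were below the 3 CTL libraries, and DESeq2 called this gene alone (-0.62, adjusted p = 0.02399). The largest estimate was that of Nfkbia in WT sdCAMs, at 1616, 2062 and 1765 CPM after CTL and 773, 607 and 1398 CPM after BLZ945 (log2 fold change -1.04, 95% interval -2.78 to 0.70). In MG the intervals of Nfkbia were -0.46 to 0.34 in WT and -0.06 to 0.83 in Ccr2-/- mice.

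In the reporter mice, in which PBS and LPS groups had both received BLZ945, the sdCAM response included Nfkb1 and Rel. With tdT+ and tdT- libraries fitted together, 4 members rose (Nfkb1, Rel, Nfkbia, Nfkbiz) and Rela fell, against 18.6% and 15.0% of all genes. Rela passed in this joint test (log2 fold change -0.98, SE 0.29, adjusted p = 0.0166, edgeR) and in neither population by itself. Because the 12 libraries came from 6 mice, each giving a tdT+ and a tdT- library, this test counts each mouse 2 times. With counts summed per mouse (3 mice against 3) the same 5 members passed, Rela at -0.98 (edgeR adjusted p = 0.0299) and Rel at 1.06 (edgeR adjusted p = 0.0333). The level of Rela was 166, 122 and 237 CPM in tdT+ sdCAMs after PBS and 71.1, 85.7 and 95.9 CPM after LPS. In tdT- sdCAMs it was 162, 163 and 177 CPM and 153, 37.7 and 79.1 CPM. In both populations all values after LPS lay under those after PBS. Nfkb2 (log2 fold change 0.89, adjusted p = 0.0539, edgeR), Relb (log2 fold change 0.75, adjusted p = 0.0607, edgeR) and Nfkbie (log2 fold change -0.95, adjusted p = 0.0564, edgeR) came close without passing in the joint test. Nfkb2 was at 79.8, 24.5 and 24.4 CPM in tdT+ sdCAMs after PBS and 69.1, 77.6 and 137 CPM after LPS, and it passed in tdT+ sdCAMs without the high PBS library of mouse 174 (1.94, edgeR adjusted p = 0.0192).

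Nfkb1 was at 71.2, 74.9 and 89.5 CPM in tdT+ sdCAMs after PBS and at 239, 181 and 271 CPM after LPS (log2 fold change 1.55, SE 0.31, adjusted p = 0.00336, edgeR). Among tdT- libraries it was at 75.5, 95.8 and 95.7 CPM after PBS and 129.5, 236 and 174 CPM after LPS (log2 fold change 1.01, SE 0.30, adjusted p = 0.0206, edgeR). The groups did not overlap in either population. Rel was at 51.1, 18.2 and 51.6 CPM after PBS and 74.4, 70.3 and 93.7 CPM after LPS in the tdT+ libraries (log2 fold change 0.98, SE 0.42, adjusted p = 0.134, edgeR). In tdT- sdCAMs it rose from 33.2, 27.1 and 39.4 CPM to 70.4, 113 and 65.8 CPM (log2 fold change 1.32, SE 0.42, adjusted p = 0.0289, edgeR). All Rel libraries after LPS were above those after PBS.

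Among the inhibitors, Nfkbia rose in tdT+ sdCAMs from 218, 134 and 289 CPM to 770.3, 929.9 and 803 CPM (log2 fold change 1.97, SE 0.43, adjusted p = 0.00696, edgeR). In tdT- sdCAMs it rose from 204, 149 and 271 CPM to 1283, 3575 and 1207 CPM (log2 fold change 3.28, SE 0.46, adjusted p = 7.06e-05, edgeR), with mouse 5 far above the other 2 mice. Nfkbiz rose in tdT+ sdCAMs from 43.3, 22.6 and 33.7 CPM to 87, 178 and 124 CPM (log2 fold change 1.97, SE 0.57, adjusted p = 0.0301, edgeR) and in tdT- sdCAMs from 42.8, 26 and 5.64 CPM to 99, 205 and 97.8 CPM (log2 fold change 2.43, SE 0.58, adjusted p = 0.00518, edgeR). Nfkbib rose in tdT- sdCAMs from 38.4, 39 and 37.6 CPM to 60.4, 213 and 88.5 CPM (log2 fold change 1.65, SE 0.46, adjusted p = 0.0136, edgeR). Bcl3 was at 58.7, 38.7 and 31.8 CPM in tdT+ and 52.2, 17.4 and 35 CPM in tdT- sdCAMs after PBS, and was at 35.6, 30.6 and 51.5 CPM and 25.4, 27.2 and 52.9 CPM after LPS. Its groups overlapped, and the 95% intervals of the log2 fold change were -1.17 to 0.90 and -1.04 to 1.04.

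In all, 3 members passed in tdT+ sdCAMs (13.7% of all genes) and 5 in tdT- sdCAMs (27.2%), with all 3 of the former among the latter. The difference between these 2 responses was not tested. Without the tdT+ library of mouse 5, which held microglial markers, Nfkb1 and Nfkbia still passed and Nfkbiz did not (log2 fold change 1.66, edgeR adjusted p = 0.0857). The tdT- calls of Nfkb1, Rel and Nfkbib were lost without the LPS library of mouse 5 (adjusted p = 0.0713, 0.105 and 0.116). Leaving out any 1 tdT- library after PBS also ended them, at adjusted p of 0.0724 to 0.107 for Nfkb1, 0.0684 to 0.133 for Rel and 0.0509 to 0.0589 for Nfkbib, as did library totals (adjusted p = 0.668, 0.401 and 0.199). Saa3 took 14.5 to 28.3% of the counts in tdT- sdCAMs after LPS, where the neutrophil marker sum was 571 to 2234 CPM against 0 after PBS. The sum of the microglial markers in tdT- sdCAMs was 3689 to 3929 CPM after PBS and 239 to 744 CPM after LPS. That of the monocyte markers, Ccr2 among them, was 229.9 to 286 CPM and 9.86 to 27.4 CPM in tdT+ and 142 to 287 CPM and 9.34 to 79.1 CPM in tdT- sdCAMs. The part of these shifts was not tested.

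Set against each other directly, tdT+ and tdT- sdCAMs did not differ in any member after PBS by edgeR or DESeq2 (0.0236% of all genes passed). After LPS, Nfkbib was lower in tdT+ than in tdT- sdCAMs, at 24.1, 48 and 47.5 CPM against 60.4, 213 and 88.5 CPM (log2 fold change -1.59, SE 0.46, adjusted p = 0.0349, edgeR), the single member to pass against 11.0% of all genes. Nfkbia was also lower in every tdT+ library (log2 fold change -1.28, adjusted p = 0.06799, edgeR) and passed with the mouse as a block (adjusted p = 0.0408). The Nfkbib call did not hold with 2 columns exchanged whose index numbers are crossed between name and label (adjusted p = 0.762), nor with library totals (adjusted p = 0.456). It was also lost without any one of the LPS libraries of tdT+ mice 1, 5 and 7 (adjusted p = 0.129, 0.0649 and 0.0819) and of tdT- mouse 5 (adjusted p = 0.225).

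In reporter MG, Nfkbia rose from 135, 129.99 and 209 CPM to 1719, 959 and 771 CPM (log2 fold change 2.84, SE 0.44, adjusted p = 0.0416, edgeR), the 1 member that passed, where 1.02% of all genes did. Nfkbiz was at 13, 36.2 and 17.5 CPM after PBS and 139, 203 and 197 CPM after LPS (log2 fold change 2.95, adjusted p = 0.0574, edgeR). Bcl3 was at 7.31, 11.6 and 2.78 CPM and 60.3, 41.7 and 29.7 CPM (log2 fold change 2.55, adjusted p = 0.144, edgeR). All 3 genes were higher in every library after LPS, and DESeq2 called all 3. The log2 fold changes of the other 7 members ran from -0.71 for Rela to 1.29 for Nfkb2. The Nfkbia call was lost when any library except that of PBS mouse 175 was left out, with adjusted p from 0.0926 (LPS mouse 1) to 0.193 (LPS mouse 5), while 0.146 was obtained without LPS mouse 7, 0.1696 without PBS mouse 174 and 0.122 without PBS mouse 177.

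**Figure D3:**
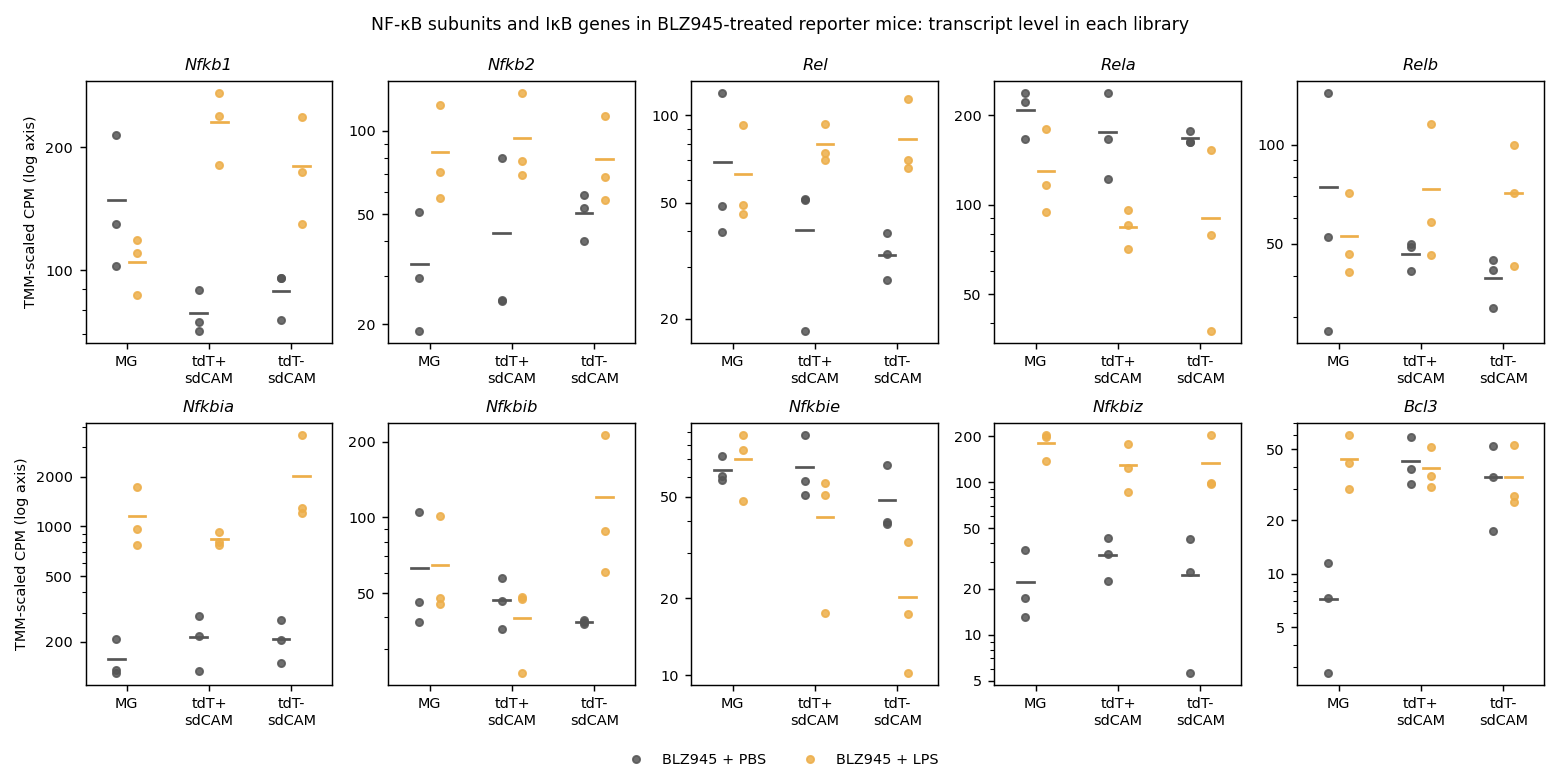
TMM-scaled CPM (log axis, each panel with its own range) of the 10 genes in each library of the BLZ945-treated reporter mice after PBS or LPS. Points are libraries and bars are means of 3 libraries. In both sdCAM populations Nfkb1, Rel, Nfkbia and Nfkbiz lie higher and Rela lower after LPS, while Bcl3 overlaps.

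Ratios of counts within a library do not depend on scaling between libraries. The counts of Nfkbia over those of Rela, the inhibitor over the subunit it retains, were 0.533, 0.491 and 0.474 in untreated WT MG and 4.33, 2.42 and 2.88 after LPS. In Ccr2-/- MG they were 0.575, 0.493 and 0.516 and 4.72, 4.29 and 4.29, and in Ccr2-/- sdCAMs 0.817, 0.628 and 0.559 and 6.95, 5.89 and 7.43. By the median library the widest shift was in WT sdCAMs, from 1.48, 1.22 and 0.594 to 42.4, 46.6 and 26.4. In all 7 populations every ratio after LPS was above every ratio after PBS. In WT sdCAMs after BLZ945 and LPS the ratio was 8.91, 5.57 and 33.2, with 1 library inside the CTL range and the other 2 below it. In tdT- sdCAMs after LPS it was 8.38, 94.9 and 15.2, mouse 5 being the high one, and in tdT+ sdCAMs 10.8, 10.9 and 8.37.

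The ratio of Nfkb2 to Nfkb1, the precursors of p52 and p50, was higher after LPS in WT and Ccr2-/- mice and in reporter MG. It was 0.1296, 0.151 and 0.127 in untreated Ccr2-/- MG and 1.23, 0.828 and 1.195 after LPS. In Ccr2-/- sdCAMs it was 0.399, 0.408 and 0.487 and 2.605, 3.75 and 2.31, so that Nfkb2 counts exceeded Nfkb1 counts in all 3 libraries. In WT MG the ratio was 0.1698, 0.184 and 0.1904 and 1.32, 0.354 and 0.691, and in WT sdCAMs 0.212, 0.131 and 0.152 and 0.705, 0.552 and 0.354. In reporter MG it was 0.146, 0.496 and 0.137 after PBS and 1.13, 0.603 and 0.658 after LPS. None of these groups overlapped. Nfkb1 itself passed as lower in WT and Ccr2-/- MG and in none of the other 3 populations. In tdT+ sdCAMs, by contrast, the ratio overlapped, at 1.12, 0.327 and 0.272 after PBS and 0.289, 0.428 and 0.506 after LPS, as it did in tdT- sdCAMs (0.776, 0.551 and 0.417 and 0.434, 0.288 and 0.6505). These ratios are given as a description, and no test was made on them.

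**Figure D4:**
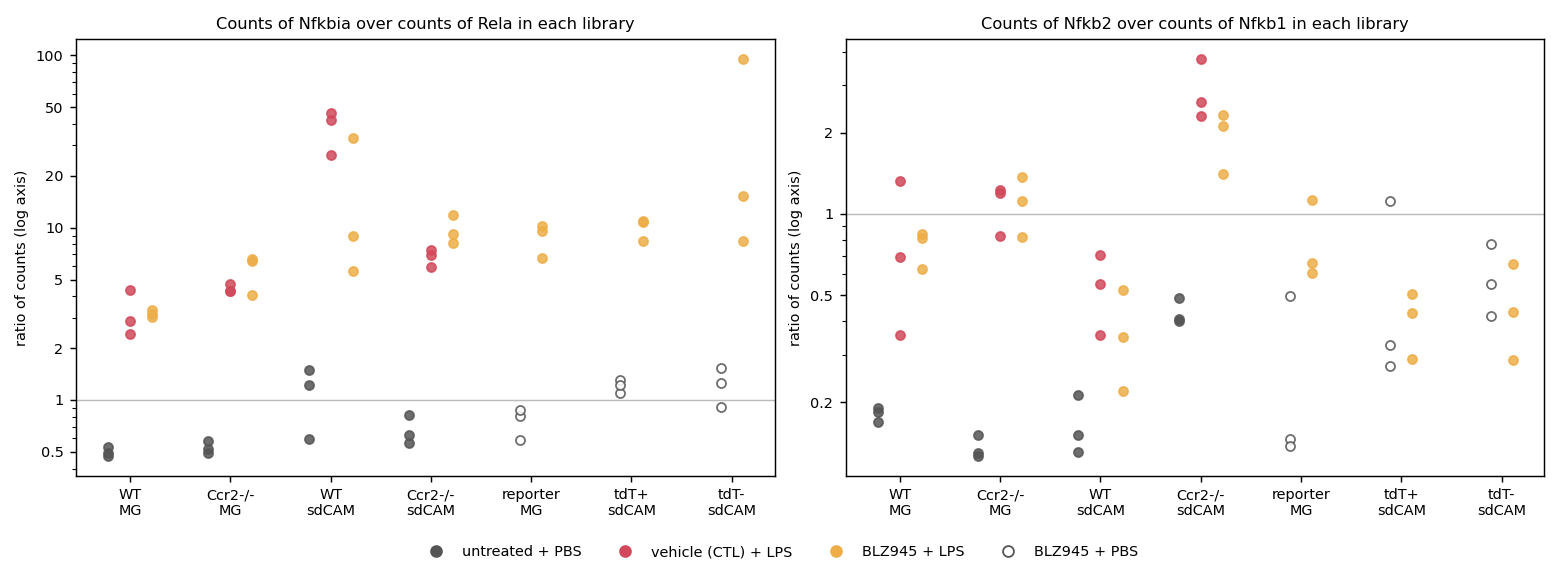
Counts of Nfkbia over counts of Rela (left) and of Nfkb2 over Nfkb1 (right) within each library, on log axes, for 7 populations. Points are libraries, coloured by treatment, and the grey line marks a ratio of 1. The Nfkbia to Rela ratios after LPS are 2.42 or higher and those after PBS 1.53 or lower.

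The make-up of the subunit transcripts was expressed as each subunit's share of the counts per exonic base of all 5. Rela led in untreated cells of 3 populations, with a mean share of 43.5% in WT MG (range 40.4 to 48.2%), 47.2% in Ccr2-/- MG and 50.8% in Ccr2-/- sdCAMs. In untreated WT sdCAMs Rela (38.9%, range 31.6 to 48.7%) and Nfkb1 (35.8%, range 29.2 to 43.5%) overlapped, and Nfkb1 led in mouse 15. Nfkb1 had 32.5% in untreated WT MG (range 30.6 to 33.5%) and 16.4% after LPS (range 13.7 to 18.5%). In Ccr2-/- sdCAMs the share of Nfkb2 was 8.92% untreated and 25% after LPS (range 22.9 to 28.1%). That of Relb in the same cells was 13.6% and 30.5% (range 27.5 to 33.8%), so that Nfkb2 and Relb made up more than 50% of the subunit transcripts there. In tdT+ sdCAMs the order differed after LPS, Nfkb1 having 16.2% after PBS and 37% after LPS, and Rela 52.8% and 20.7%. By mean share Nfkb1 also led Rela after LPS in tdT- sdCAMs (31.5% against 24.3%). The same held in WT sdCAMs after CTL (31.6% against 21.4%) and after BLZ945 (39.1% against 25.5%). Ranges overlapped in tdT- sdCAMs and in WT sdCAMs after CTL. In Ccr2-/- sdCAMs after CTL and LPS, Rela stayed ahead of Nfkb1 (32.8% against 9.26%). Because shares sum to the whole, a higher share of one subunit lowers those of the others.

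**Figure D5:**
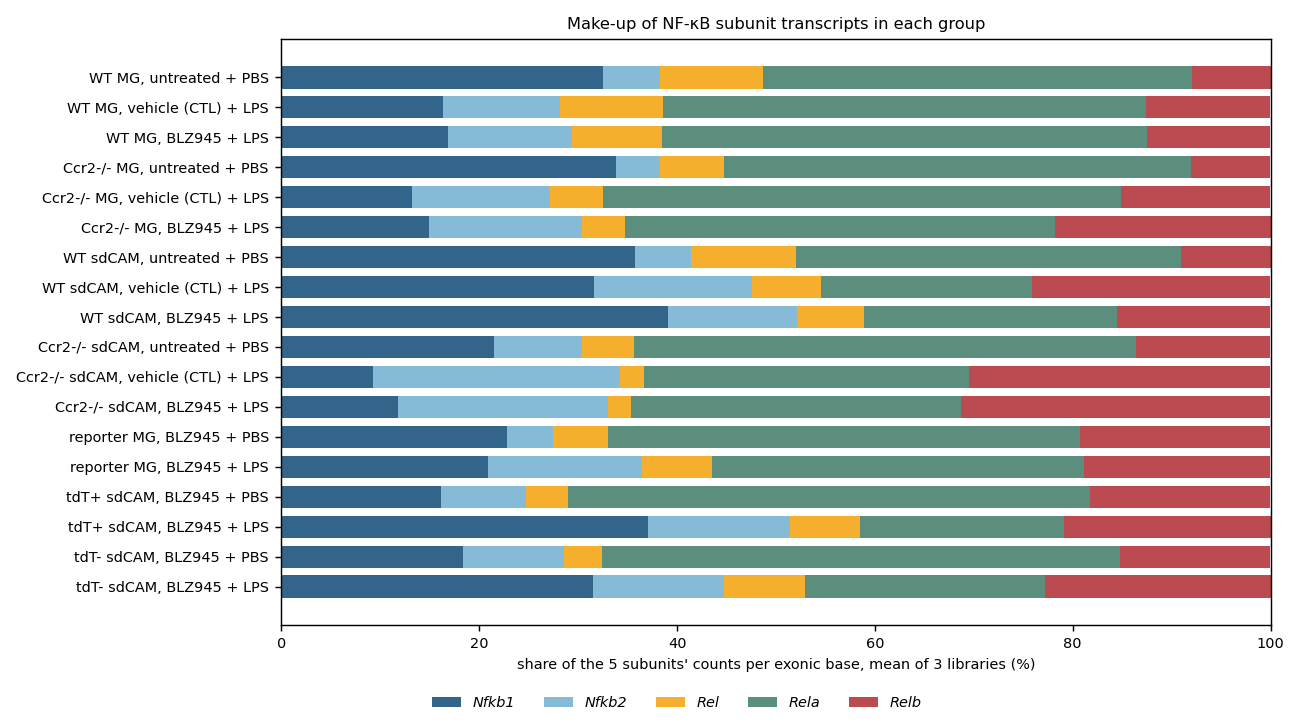
Mean share (%) of each of the 5 subunits in their summed counts per exonic base, for 18 groups of 3 libraries. Rela is the largest segment in untreated MG, and the Nfkb2 and Relb segments of Ccr2-/- sdCAMs are wider after LPS than untreated.

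Other genes of the NF-κB pathway were represented by 33 genes, namely 8 kinases, 18 adaptors and ligases and 7 brakes. In WT MG 12 of the 33 rose and 1 fell after LPS (16.6% and 14.2% of all genes), with a median log2 fold change of 0.31 (all genes 0.02). In Ccr2-/- MG 13 rose and 2 fell (19.4% and 15.6% of all genes), with a median of 0.29 (all genes 0.00). In Ccr2-/- sdCAMs 15 rose (15.8% of all genes) and none fell by edgeR (median 0.63, all genes -0.05), comprising 3 kinases, 8 adaptors and ligases and 4 brakes. By edgeR, 4 of the 33 rose and none fell in WT sdCAMs, where 3.69% of all genes rose. In reporter MG 2 of the 32 tested rose (all genes 0.607%) and none fell by edgeR. In tdT+ sdCAMs 8 rose and in tdT- sdCAMs 9 (all genes 7.65% and 14.8%), again with none lower by edgeR, while the joint test of both gave 10 higher and 3 lower (all genes 18.6% and 15.0%). In the interaction of cell type and LPS, 6 were more positive in Ccr2-/- sdCAMs than MG (all genes 3.56%), 4 of them adaptors and ligases and 2 brakes, and none passed in WT mice by edgeR.

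Of these genes, Nfkbid, the remaining nuclear IκB gene, rose in WT MG (log2 fold change 0.68, adjusted p = 0.04004, edgeR) and in Ccr2-/- MG (log2 fold change 1.40, adjusted p = 0.00168, edgeR). Tnfaip3 encodes the deubiquitinase A20, which ends NF-κB signalling and is itself a target gene. It rose in WT MG (log2 fold change 1.84, adjusted p = 0.0122, edgeR), Ccr2-/- MG (log2 fold change 1.90, adjusted p = 2.55e-05, edgeR) and Ccr2-/- sdCAMs (log2 fold change 4.39, adjusted p = 1.88e-08, edgeR), the last by more than in MG (difference 2.52 on the log2 scale, edgeR adjusted p = 3.89e-05). None of the 7 brakes, Tnfaip3 and Nfkbid among them, passed in WT sdCAMs by edgeR, nor any of the 6 tested in reporter MG. Map3k8, Traf1 and Irak3 were named for the smallest edgeR adjusted p in WT MG, so that their WT MG values reflect this choice. Map3k8, a kinase kept inactive by the Nfkb1 precursor, was 3.04 and 3.37 higher on the log2 scale in WT and Ccr2-/- MG (edgeR adjusted p = 2.33e-06 and 9.25e-05). Traf1, an adaptor of tumour necrosis factor receptors, was higher by 3.31 in WT MG and by 7.34 in Ccr2-/- sdCAMs (edgeR adjusted p = 0.00208 and 1.39e-05). Irak3, an inhibitory member of the interleukin-1 receptor-associated kinases, was higher by 2.12 in WT MG and by 4.21 in Ccr2-/- sdCAMs (edgeR adjusted p = 0.00212 and 1.75e-07), and its responses differed between the Ccr2-/- populations (2.06, adjusted p = 0.00148).

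Over the 36 WT and Ccr2-/- libraries, the members formed no single pattern. Pearson correlations of log2(CPM + 1) ran from -0.72 between Nfkb1 and Bcl3 to 0.95 between Nfkb2 and Relb, which were each other's closest gene among the 8706 genes averaging 10 CPM or more. Bcl3 correlated at 0.86 with Nfkbiz and 0.85 with Nfkbia. The gene closest to Nfkbia was Cebpb (r = 0.97), that closest to Bcl3 was Ms4a6b (r = 0.92), that closest to Nfkbiz was Ch25h (r = 0.88) and that closest to Nfkb1 was Cd180 (r = 0.83). For Rela it was Rtn3 (r = 0.89), for Rel Mapk8ip3 (r = 0.88), for Nfkbib Nus1 (r = 0.86) and for Nfkbie Klhl7 (r = 0.75). The libraries share mice, cell types and the LPS contrast, so these values are a description only.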

How the data were processed

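RNA was sequenced from MG and sdCAMs sorted from mouse brains, with 54 libraries in 18 groups of 3, 24 mice and 3 tables of 18 columns. The authors deposited raw counts per gene, made from single reads with bcl2fastq 2.20, STAR 2.7.11a and featureCounts 2.0.8 (versions from the submitters' processing notes, which also name DESeq2 1.46.0). The strand setting was not stated, and the alignment build is given as either of 2. Libraries were made by amplification from low-input RNA without molecular identifiers, so that duplicates count as reads. Total counts were 1705930 to 11330781 per library, 0 columns lacked a library, and no 2 libraries held identical counts.

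Groups came from the labels. Titles of the Ccr2-/- libraries given vehicle or BLZ945 contradict the cell type field and the library name, and the latter pair was used. Of the WT sdCAM libraries 6 carry a mark for correction of immediate early genes, while the deposited counts are whole numbers as analysed here. The marked ones are mice 1, 4 and 6 after CTL and LPS, mice 9 and 14 untreated, and mouse 12 after BLZ945 and LPS. The mark is thus unevenly spread over the WT sdCAM groups and cannot be fully told apart from treatment. The batch field is 1 for all WT and Ccr2-/- libraries and 2 for all reporter libraries, so that no comparison crosses this field. The paper applied a batch correction to the WT and Ccr2-/- counts, and the field shows no batch among them. Genotype cannot be told apart from any batch that goes with the table. Total counts of sdCAM libraries were 1705930 to 7699790 in WT and 7887891 to 10727796 in Ccr2-/- mice. In the reporter table, 2 columns carry each other's index number, and the column names were followed.

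LPS responses and BLZ945 comparisons were fitted on the libraries of a single cell type and mouse line, with tdT+ and tdT- sdCAMs fitted together. Comparisons of cell types used all 18 libraries of a genotype. Comparisons of genotypes used the 18 MG or the 18 sdCAM libraries of WT and Ccr2-/- mice. Each fit was filtered (filterByExpr), scaled by TMM and tested with edgeR 4.0.16 (R 4.3.3) by the robust quasi-likelihood test. The SE is the log2 fold change over the root of F. The 95% intervals use edgeR's total degrees of freedom, the residual ones plus those borrowed across genes. P-values were adjusted by Benjamini-Hochberg over all genes, with 0.05 as threshold. This design differs from that of the study, which used DESeq2 with batch correction of the counts. The steps were tested on simulated data. Mouse numbers pair MG and sdCAM libraries because both came from the same mouse. In WT and Ccr2-/- mice, same-mouse deviations of MG and sdCAM libraries correlated at -0.0241 to 0.157. Those of tdT+ and tdT- libraries correlated at 0.0369 to 0.167.

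All 10 members are named, the 33 other pathway genes by counts, and of these Nfkbid, Tnfaip3 and the 3 with the smallest adjusted p in WT MG. The members and lists were chosen with earlier results of these data known. Gene lengths are Gencode vM21 exon unions. Alternatives were DESeq2 1.42.0, median-of-ratios factors, library totals (added after seeing the data), a log2 fold limit of 1, the study's rule on low counts, fits of only the libraries compared, the mouse as a block, the correction mark as a covariate, 2 columns exchanged, tdT+ and tdT- counts summed per mouse and each library left out.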

Additional observations from a re-analysis of the deposited data

Results flagged for a closer look

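The responses of MG and sdCAMs to LPS differed in Ccr2-/- mice for 5 members, by an interaction of cell type and LPS. It contrasted 12 libraries in a fit of all 18 Ccr2-/- libraries. On the log2 scale, the response of sdCAMs minus that of MG was -2.34 for Bcl3, 1.42 for Nfkbie, 1.32 for Nfkbib, 1.19 for Relb and 1.08 for Nfkb1. The edgeR adjusted p-values were 0.000676, 0.0303, 0.0134, 0.0187 and 0.02602, in the same order. Over 18 alternatives Bcl3 passed in 18, Nfkbib in 17, Relb in 15, Nfkbie in 9 and Nfkb1 in 7.

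The Nfkbib difference was lost without the MG library of mouse V2m after LPS (edgeR adjusted p = 0.0501). The Relb difference was lost without that library (0.0666), without the untreated sdCAM library of mouse 3m (0.0622) and without the untreated MG library of mouse 5f (0.0561). Nfkb1 lost its call in 9 of the 12 fits that left out a library, with adjusted p from 0.0501 (untreated MG, mouse 5f) to 0.0823 (MG after LPS, mouse V4f). It was kept without the sdCAM libraries of mice 1m and V2m and the MG library of mouse V1m. Nfkbie lost its call in 7 of the 12, with adjusted p from 0.0567 (untreated sdCAMs, mouse 3m) to 0.0983 (MG after LPS, mouse V4f). It was kept without either library of mice 5f and V1m and without the sdCAM library of mouse V4f.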

How the results depend on the processing

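The number of members that passed was recomputed under every alternative. Outside the fits that left out a library, 118 of 141 counts stayed within 1.5 times the reported count. The others were as follows. With DESeq2, 2 members passed in WT sdCAMs, 1 in the BLZ945 comparison of Ccr2-/- sdCAMs, 3 in reporter MG, 8 in reporter sdCAMs, 2 between tdT+ and tdT- sdCAMs after LPS and 1 in the WT interaction. With library totals, 4 passed in WT sdCAMs, 2 in reporter MG, 2 between tdT+ and tdT- sdCAMs after LPS, 4 in the WT interaction, 0 between untreated WT sdCAMs and MG and 1 between genotypes in untreated MG. Median-of-ratios factors gave 2 in reporter MG and 2 between tdT+ and tdT- sdCAMs after LPS, and the study's rule on low counts gave 2 in reporter MG. The mark as a covariate gave 2 in WT sdCAMs, and the log2 fold limit gave 2 between untreated Ccr2-/- sdCAMs and MG. Fits of only the libraries compared gave 0 between tdT+ and tdT- sdCAMs after LPS, 1 between untreated WT sdCAMs and MG and 1 between genotypes in untreated MG. Exchanging the 2 columns gave 0 between tdT+ and tdT- sdCAMs after LPS, and also ended the calls of Nfkbiz in tdT+ (edgeR adjusted p = 0.0634) and Nfkbib in tdT- sdCAMs (0.0598), while Relb gained a call in tdT- sdCAMs (1.27, 0.0421). The counts of all genes in these fits are not given here, and the cause of these shifts was not tested.

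The replicate block by mouse gave 2 between tdT+ and tdT- sdCAMs after LPS and 1 between untreated WT sdCAMs and MG, where Bcl3 was lost (edgeR adjusted p = 0.116), and in the Ccr2-/- interaction it gave 4, with Nfkb1 and Nfkbie lost and Nfkbiz gained. It changed no other call of a member.

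Leaving out 1 library at a time gave 0 to 1 members in WT sdCAMs, 0 to 3 in reporter MG, 5 to 8 in reporter sdCAMs, 2 to 6 in tdT- sdCAMs, 0 to 2 between tdT+ and tdT- sdCAMs after LPS, 0 to 1 in the WT interaction, 1 to 6 in the Ccr2-/- interaction, 0 to 3 between untreated WT sdCAMs and MG, and 0 to 1 between genotypes in untreated MG. The number of all genes passing moved as well. It was 137 to 304 in WT sdCAMs (672 with every library) and 0 to 380 in reporter MG (111 with every library). In reporter sdCAMs it was 3471 to 4562, and in tdT- sdCAMs 2387 to 3360. Between tdT+ and tdT- sdCAMs after LPS it was 943 to 1426. The WT and Ccr2-/- interactions gave 56 to 281 and 783 to 917. Untreated WT sdCAMs against MG gave 957 to 3130, and genotypes in untreated MG 1242 to 1686. The untreated WT calls were lost for both Nfkbiz and Bcl3 without the MG library of mouse 9 (edgeR adjusted p = 0.0614 and 0.117) or mouse 15 (0.0901 and 0.103), and for Bcl3 also without the MG library of mouse 14 (0.0922). In untreated Ccr2-/- mice, Nfkbiz was lost without the MG library of mouse 3m (0.0594) and Nfkb2 without that of mouse 5f (0.0546). In tdT+ sdCAMs, Nfkbiz was also lost without LPS mouse 7 (0.0705) or any 1 PBS mouse (0.0553 to 0.1096). Leaving out tdT- mouse 1 after LPS gave the high count in reporter sdCAMs, with Nfkb2, Relb and Nfkbib added. The library with the fewest counts, 1705930, was one of WT sdCAMs, and the fewest Bcl3 counts in an untreated WT sdCAM library were 8.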
